A study of Mus musculus with 16 samples.

Results

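Gonadal white adipose tissue, the fat pad beside the epididymis of male mice, was examined here in its fasted state alone, to describe how evenly a fast is read out from sample to sample. The fasted samples were taken as the 8 arrays whose titles name a fast, of 16 arrays in the series, and the other 8 are from fed mice. Per the labels, all samples came from male C57BL/6 mice aged 3 to 4 months, the fast lasted 16 hours, food was otherwise freely available, and tissue was collected in the morning. No genetic change or other treatment is named. The labels do not say that each sample is a separate mouse, so spreads and p-values describe these samples. Levels of fed and fasted samples were not compared; the fed arrays were used only for the size of their own spread.

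Fasting switches the fat cell from storing to releasing fatty acids. Insulin falls, the lipases that cut stored triglyceride are freed, genes of fatty acid synthesis under SREBP-1c and ChREBP lose their drive, and the fat-derived hormone leptin falls. Fatty acids and glucocorticoids activate nuclear receptors, among them the PPAR family, whose targets include Pdk4, Angptl4 and the fatty acid hydroxylases of the Cyp4a family. How deep this switch goes in an animal is known to depend on its fat stores and on when it last ate.

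Values are log2 signals, so a difference of 1 is a doubling, and ± is the standard deviation (SD) over the 8 fasted arrays. One probe set stood for each of 22180 genes. The array medians lay between 3.62 and 3.68, and the median gene had a mean signal of 4.16, which is used below to separate brighter from dimmer genes. Probe sets differ in how well they bind, so an order of signals across genes is an order of signals and not of transcript amounts.

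The order of signals was much the same in all 8 arrays, with rank correlations over genes between 0.963 (replicates 2 and 7) and 0.976, where genes are not independent replicates. The brightest gene was Car3, the carbonic anhydrase of fat and muscle, at 12.94 ± 0.08 and between rank 1 and rank 4 in every array. Mitochondrially encoded subunits followed, with ND4 at 12.89 ± 0.07 and COX1 at 12.73 ± 0.07. B2m and Eif4a1 came next, and then several fat cell genes. Fabp4, the fatty acid carrier, lay at 12.58 ± 0.09, Retn, the hormone resistin, at 12.54 ± 0.10, Cidec, a lipid droplet protein, at 12.52 ± 0.06, Cd36, the fatty acid transporter, at 12.52 ± 0.05, and Lpl, lipoprotein lipase, at 12.46 ± 0.13. In the adipocyte list all 7 measured members were above the median signal, and their mean ran only from 10.61 to 10.91 over the arrays. All measured members of the progenitor and fibroblast, mesothelium, macrophage and endothelium lists were above the median signal too. Lying above it thus does not tell fat cells from other cell types.

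Most genes were even between fasted samples. The median SD over all genes was 0.203, and 706 of 22180 genes, or 3.18%, had an SD of at least 0.5, the cut used here for an uneven gene. Of the 11090 brighter genes 306, or 2.76%, passed that cut, so the larger share of the uneven genes was dim. With the genes cut into 10 equal bins by signal, the median SD was 0.192 in the dimmest bin, 0.257 in bin 5 and 0.146 in the brightest. Among the most even of the brighter genes were Rnf111, a ubiquitin ligase, at 7.18 ± 0.02, and Slk, a kinase of the cytoskeleton, at 7.98 ± 0.03.

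**Figure D1:**
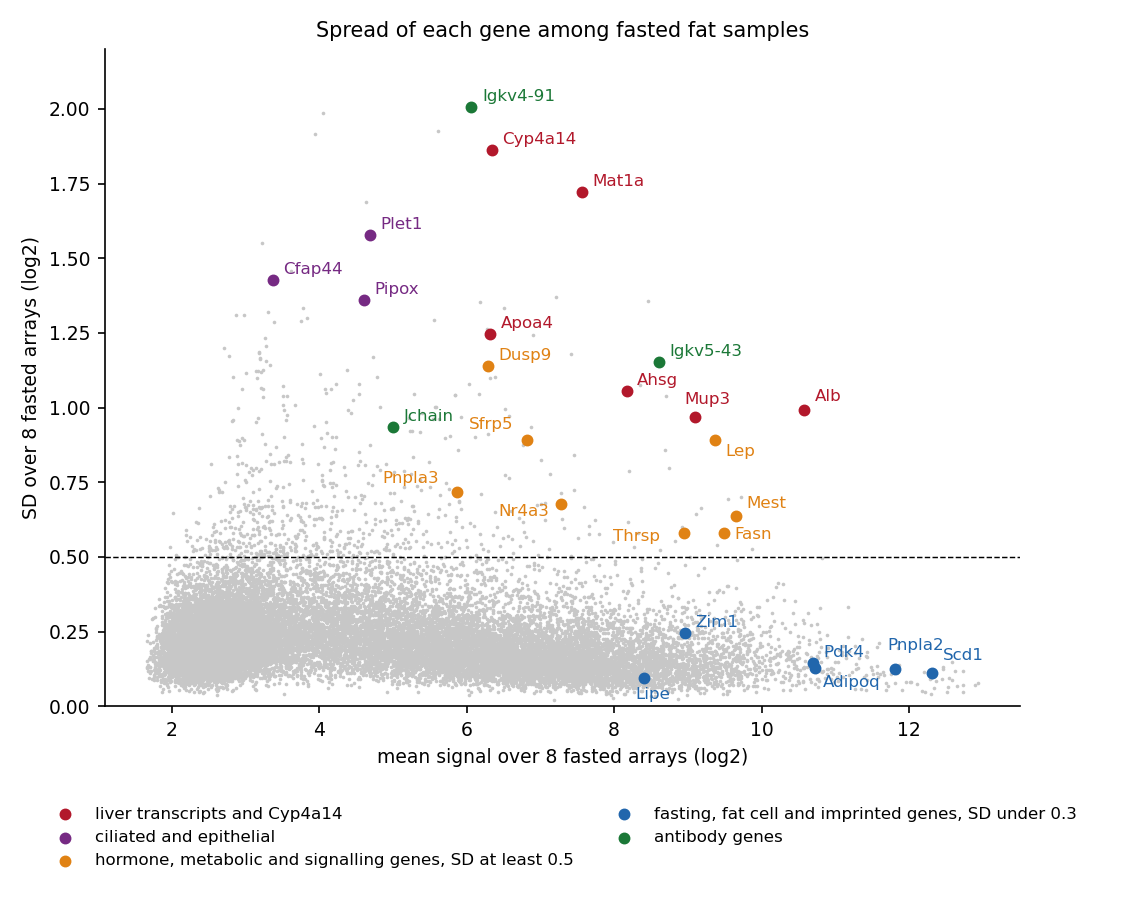
Each grey point is 1 of 22180 genes, with its mean log2 signal over the 8 fasted arrays on the x axis and its SD over the same arrays on the y axis; the dashed line marks an SD of 0.5. Genes of liver, cilia, antibody and some hormone and lipid functions lie above the line, while Pdk4, Zim1, Adipoq, Scd1, Pnpla2 and Lipe lie far below it.

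Genes named here for known ties to fasting or to the fat cell fell on both sides of that cut. Their change with the fast was not measured, so evenness here is that of the fasted signal. Pdk4, the kinase that shuts glucose carbon out of the mitochondrion, was even at 10.69 ± 0.14, with a range from 10.46 to 10.88. Zim1, an imprinted zinc finger gene, ranged from 8.49 to 9.25 around 8.96 ± 0.24. The lipases were even too, Pnpla2 (ATGL) at 11.81 ± 0.13 and Lipe (hormone-sensitive lipase) at 8.41 ± 0.09, as were the hormone gene Adipoq at 10.72 ± 0.13 and the desaturase Scd1 at 12.31 ± 0.11. In none of these 6 genes did the brightest array exceed the dimmest by more than 1.70-fold. All 6 lay in the brightest of the 10 bins, where the median SD was 0.146, so small SDs were common at their signal. Zim1 had a larger SD than that median, and the others did not.

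Leptin and parts of lipid synthesis were uneven. Lep ranged from 8.21 through a median of 9.50 to 10.70, a 5.61-fold range, with replicates 8, 5 and 1 low and replicates 4, 7 and 3 high. Pnpla3, a lipid droplet protein encoded by a target of SREBP-1c, ranged from 4.87 (replicate 6) through 5.66 to 7.04 (replicate 3). Fasn, fatty acid synthase, ranged from 8.72 (replicate 6) through 9.57 to 10.24 (replicate 2), and Thrsp, a regulator of lipogenesis, from 8.04 (replicate 7) through 9.24 to 9.51 (replicate 1). Fasn and Thrsp thus differed in which arrays were low, since replicate 1 was low for Fasn at 8.92 and highest for Thrsp. Dgat2, which makes triglyceride, had an SD of 0.46 and ranged from 8.42 to 9.84. Srebf1, which encodes SREBP-1, was more even, at 6.01 ± 0.28.

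**Figure D2:**
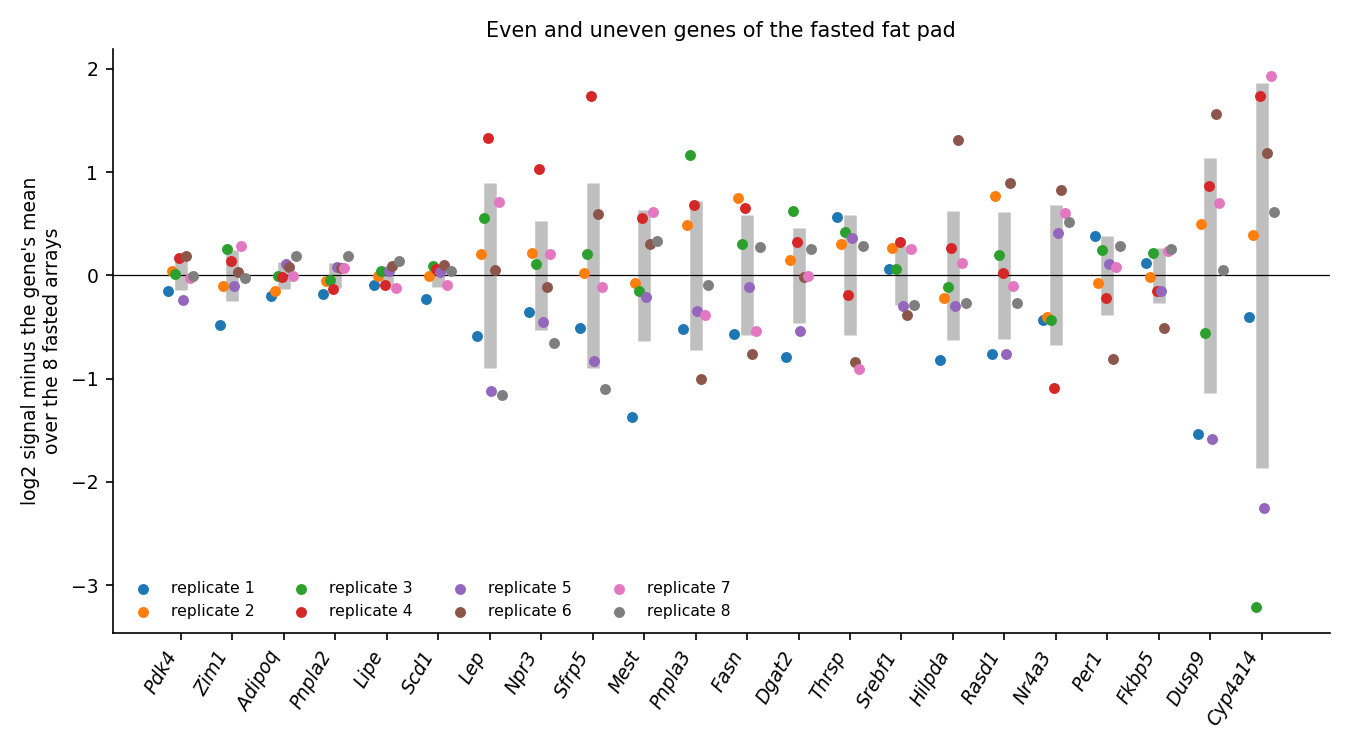
Points are the log2 signal of a gene in each of the 8 fasted arrays minus that gene's mean over them, coloured by replicate, and the grey bar spans 1 SD on either side. Pdk4, Zim1, Adipoq, Pnpla2, Lipe and Scd1 stay within 0.5 of their means in all arrays, while Lep, Sfrp5, Dusp9 and Cyp4a14 spread over more than 2 log2 units.

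Within the lists of lipid genes the uneven members were few in number, and over all genes 3.18% were uneven. In fatty acid synthesis 3 of 19 measured genes had an SD of at least 0.5 (Pnpla3, Fasn and Thrsp), and in cholesterol synthesis, triglyceride synthesis and glycolysis 0 of 19, 0 of 19 and 0 of 21 did. In the lipolysis and lipid droplet list 3 of 21 did. They were Hilpda, an inhibitor of ATGL at the droplet, which was highest in replicate 6 at 7.17 against a median of 5.69, G0s2, another inhibitor of ATGL, at 7.32 ± 0.60, and Plin5, a droplet coat protein, at 6.30 ± 0.52. The dimmer probe set of G0s2 had an SD of 0.356, and without replicate 6 only 1 of the 21 genes passed the cut. Oxidative phosphorylation had 0 uneven genes of 28 and the cytosolic ribosome 0 of 20. The 2 lists with the lowest spread of those measured with more than 10 genes were the ribosome, with a median SD of 0.141, and oxidative phosphorylation, with 0.171.

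Among the brighter genes the widest outside the antibody genes was Cyp4a14, a fatty acid omega-hydroxylase and a classic target of PPARα, at 6.34 ± 1.86. It lay at 3.13 in replicate 3 and 4.08 in replicate 5, at 5.93 in replicate 1, 6.73 in replicate 2 and 6.95 in replicate 8, and at 7.53, 8.08 and 8.27 in replicates 6, 4 and 7, a 35.3-fold range. Other PPAR targets did not share that range. Where 3.18% of all genes had an SD of at least 0.5, 5 of the 24 measured PPAR and fatty acid oxidation genes did. Besides Cyp4a14 these were Apoa4, an apolipoprotein of liver and intestine, at 6.32 ± 1.25, Acot1, a cytosolic thioesterase, at 4.17 ± 0.65, Ehhadh, a peroxisomal enzyme, at 8.83 ± 0.55, and Vnn1, a pantetheinase, at 9.03 ± 0.50. Fgf21, the fasting hormone of liver, stayed dim at 3.91 ± 0.30.

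The genes that followed Cyp4a14 most closely among the fasted arrays included many plasma protein genes of liver. A limma slope on the log2 level of Cyp4a14 was fitted for every gene, and 56 of 22179 genes, or 0.252%, passed an adjusted p of 0.05 (limma, Benjamini-Hochberg over all genes), 56 in the same direction and 0 in the opposite one. Of the 56 genes 14 were in the liver list and 16 in any list, and 48 were among the brighter genes. Mat1a, which makes S-adenosylmethionine in liver, had the lowest p. It ranged from 4.33 in replicate 3 through a median of 8.18 to 9.33 in replicate 7, and its slope was 0.914 ± 0.052 (SE, adjusted p = 6.82e-05, limma). Ahsg, the plasma protein fetuin-A, ranged from 6.56 through 8.41 to 9.28 in the same order of arrays as Cyp4a14, with a slope of 0.560 ± 0.039 (SE, adjusted p = 0.000267, limma). The others of the 8 with the lowest p were Mup3 (a major urinary protein), Slc27a2 (a fatty acid transporter and acyl-CoA synthetase), Apoh, Apoa4, Hpd (an enzyme of tyrosine breakdown) and Apon, with slopes between 0.399 and 0.663. The dimmer probe set of Slc27a2 had a slope of 0.026 (adjusted p = 0.999, limma).

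In the list of liver genes 14 of 18 measured members were called, against that background of 0.252%, and the remaining 4 were Serpina1a, Cyp3a11, Itih4 and Cyp2e1. Alb, which encodes serum albumin, reached a signal of 11.78 in replicate 4 and lay at 9.04 in replicate 5. Cyp2e1, which fat cells also express strongly, was even at 12.45 ± 0.13. The mean of the 18 liver genes ran from 5.78 in replicate 5 and 6.13 in replicate 3 to 7.86 in replicate 7 and 8.06 in replicate 4. 16 of the 18 had an SD of at least 0.5, against 3.18% of all genes, and the median correlation between pairs of them was 0.957, against a median of -0.001 over all pairs of genes measured. That liver genes differ between these arrays and that Cyp4a14 tracks them was known when Cyp4a14 was chosen, so the count is not independent evidence. The part of liver tissue or liver RNA in the level of Cyp4a14 was not tested. In tissue samples such as these, more cells of a type and more RNA per cell cannot be told apart.

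An exact permutation test was run beside the slopes. For Mat1a and Cyp4a14, Pearson's r was 0.987 (exact permutation p = 7.44e-05, two-sided) and Spearman's rho 0.976 (exact permutation p = 0.000397), and r was 0.964 without replicates 3 and 5, the arrays farthest from the median of Cyp4a14. For Ahsg, r was 0.986 (exact permutation p = 2.48e-05, the smallest that the 40320 orders of 8 arrays can give) and rho 1.00 (exact permutation p = 4.96e-05), and r was 0.953 without those arrays. After adjustment over 22179 genes the lowest adjusted exact p was 0.183 for r, so 0 genes passed 0.05 by that test. With 8 arrays a single gene at the smallest p could not pass that adjustment, though a larger group of genes sharing that p could have. The 56 calls thus rest on the limma slopes alone. At an unadjusted limma p under 0.05 there were 1135 genes, or 5.12%, about the share that chance gives at that cut. A Pearson r of at least 0.7 was reached by 2.51% of all genes and one of at most -0.7 by 2.31%, while 15 of the 18 liver genes reached 0.7 and 0 reached -0.7. Leaving out replicate 5 left 31 genes called, 30 of them among the 56, and leaving out replicate 4 left 35, all among the 56.

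The promoters of the genes that followed Cyp4a14 were searched for 1 motif tied to liver expression, the half-site of HNF1, spelled GTTAAT and read on both strands in the 250 bases before the gene start (RefSeq, GRCm38.p6). Of the 56 genes 48 had an entry, with 56 promoters in all. The motif was present in 13 of these 56 promoters, or 23.2%, and in 6.43% of all 32851 promoters in the table. A match describes letters and is not a site of binding. The 3 promoters below are examples that hold it, chosen after the matches were seen, at chr5:90460620-90460869 (+ strand) for Alb, chr3:83025903-83026152 (+ strand) for Fga, which encodes a fibrinogen chain, and chr6:71199629-71199878 (+ strand) for Fabp1, the liver fatty acid carrier. Capitals mark the motif in either orientation, and the gene start follows the last base.
Alb: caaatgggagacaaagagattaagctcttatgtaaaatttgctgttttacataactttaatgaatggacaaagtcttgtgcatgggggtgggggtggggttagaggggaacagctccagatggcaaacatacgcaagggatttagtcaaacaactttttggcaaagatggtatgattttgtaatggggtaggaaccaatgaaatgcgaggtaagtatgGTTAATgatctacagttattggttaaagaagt
Fga: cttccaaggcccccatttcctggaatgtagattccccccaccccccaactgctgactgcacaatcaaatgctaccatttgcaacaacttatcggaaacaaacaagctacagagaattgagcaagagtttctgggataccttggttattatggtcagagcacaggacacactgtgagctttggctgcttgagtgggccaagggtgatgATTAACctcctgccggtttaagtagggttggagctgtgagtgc
Fabp1: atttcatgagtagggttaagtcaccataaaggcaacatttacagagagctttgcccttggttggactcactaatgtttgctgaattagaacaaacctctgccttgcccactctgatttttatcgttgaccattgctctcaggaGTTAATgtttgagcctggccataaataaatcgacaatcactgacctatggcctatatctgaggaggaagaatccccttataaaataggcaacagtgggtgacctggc

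**Figure D3:**
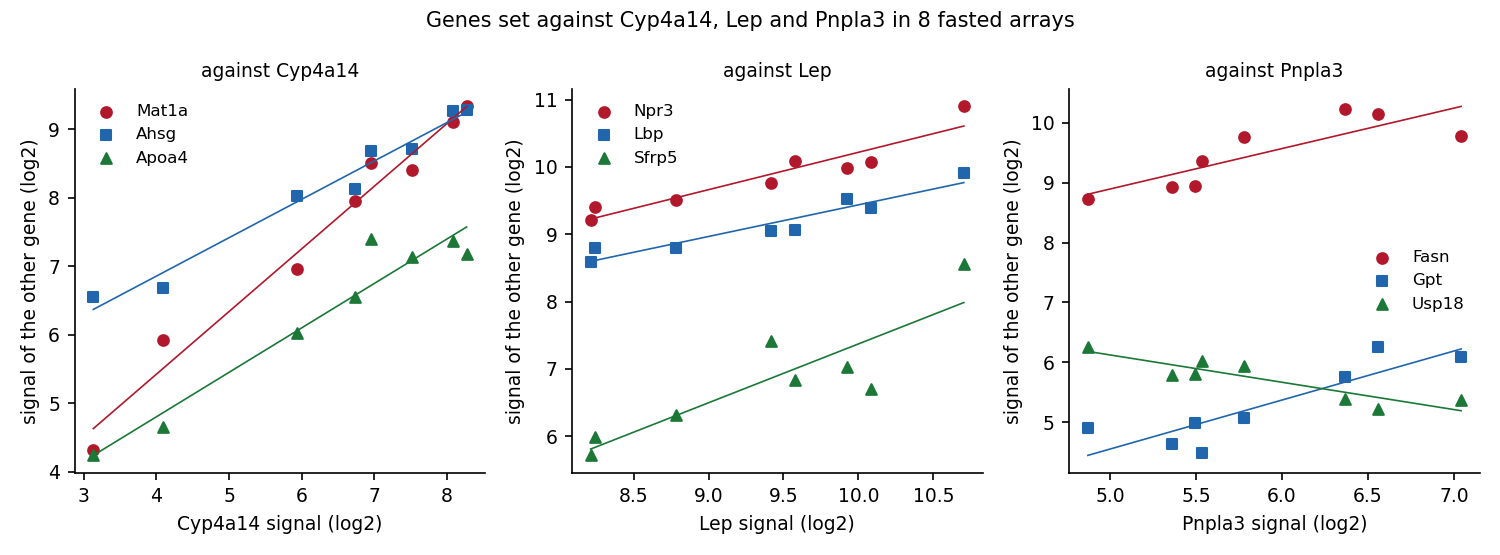
Each panel sets the log2 signal of 3 genes (y axis) against Cyp4a14, Lep or Pnpla3 (x axis) in the 8 fasted arrays, with least-squares lines. Mat1a, Ahsg and Apoa4 follow Cyp4a14 over its whole range; Npr3, Lbp and Sfrp5 lie higher where Lep is higher; Fasn and Gpt lie higher and Usp18 lower where Pnpla3 is higher.

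Lep was taken as the readout of the endocrine side of the fast, and no gene passed against it. The slope on Lep gave 0 calls among 22179 genes, or 0%, with a lowest adjusted p of 0.309 (limma). At an unadjusted p under 0.05 there were 1521 genes, or 6.86%. The 5 genes with the lowest p were Npr3, Lbp, Matn2, Trim16 and Rasl12. Npr3, the clearance receptor for natriuretic peptides, ranged from 9.21 (replicate 8) through 9.87 to 10.90 (replicate 4). Lep was likewise lowest and highest in these 2 arrays. The slope of Npr3 was 0.555 ± 0.080 (SE, adjusted p = 0.309, limma). For Npr3 and Lep, r was 0.943 (exact permutation p = 0.000149, adjusted 0.402) and rho 0.929 (exact permutation p = 0.00223, adjusted 0.589), and r was 0.926 without replicates 5 and 8. Lbp, which binds bacterial lipopolysaccharide, ranged from 8.58 through 9.06 to 9.91 with a slope of 0.470 ± 0.070 (SE, adjusted p = 0.309, limma). With the trend and robust settings of limma these 2 genes, Npr3 and Lbp, were the only calls, both with an adjusted p of 0.041.

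Genes known to differ between mice of unlike adiposity were uneven but did not all track Lep. Of 6 such genes, a list that includes Lep itself, 5 had an SD of at least 0.5, where 3.18% of all genes did. The list was chosen with earlier results of these data known, so that count is not independent evidence. Sfrp5, a secreted inhibitor of Wnt signalling, ranged from 5.72 (replicate 8) through 6.77 to 8.55 (replicate 4), a 7.15-fold range, with a slope on Lep of 0.874 ± 0.159 (SE, adjusted p = 0.309, limma). Mest, an imprinted gene linked to fat pad growth, lay between 9.44 and 10.26 in 7 arrays and at 8.27 in replicate 1, and its slope on Lep was 0.316 ± 0.205 (SE, adjusted p = 0.792, limma). Bmp3, a growth factor of the BMP family, was high in replicate 2 at 6.99 and replicate 4 at 6.74 and lay between 5.18 and 6.29 elsewhere. Nkd1, an inhibitor of Wnt signalling, was even at 5.20 ± 0.31. The mean of these genes was highest in replicate 4 at 8.76 and lowest in replicates 1 and 8, at 7.23 in each, and the median correlation between their pairs was 0.390, or 0.073 without replicate 4, where pairs of all uneven genes had a median of 0.196.

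Several lists had median correlations with Lep away from 0 without a called gene. Over all genes 3.42% had r with Lep of at least 0.7 and 3.54% of at most -0.7. In the cytosolic ribosome list 6 of 20 genes lay at or below -0.7 and 0 at or above 0.7, with a median r of -0.65, which stayed between -0.69 and -0.52 when each array was left out. Its count was 4 without replicate 8, 5 without replicate 4 and up to 9 without others. The share of all genes at or below -0.7 also moved, from 3.67% without replicate 4 to 5.87% without replicate 1. Rps6, a protein of the small subunit, is an example, at 11.79 in replicate 1 and 11.36 in replicate 4. In the extracellular matrix list 5 of 30 genes lay at or above 0.7, with a median r of 0.46. That median lay between 0.207 and 0.612 when each array was left out. Col15a1, a basement membrane collagen, ranged from 5.88 to 7.22 with a slope of 0.429 ± 0.073 (SE, adjusted p = 0.309, limma), and Eln, elastin, from 7.04 to 7.92. The mean of the matrix list was highest in replicate 4 at 8.83. Its count at or above 0.7 was 2 without replicate 4 or 8, 8 without replicate 6, 9 without replicate 3 or 7 and 11 without replicate 1. Over all genes the share at or above 0.7 ran from 3.43% without replicate 4 to 5.72% without replicate 7, and was 5.05% without replicate 1. For the FOXO targets the median r with Lep was -0.49, with 3 of 19 genes at or below -0.7 and 0 at or above 0.7. The pericyte and smooth muscle markers had a median r with Lep of 0.64 and the mesothelial markers one of -0.54. The part of these cell types in the matrix and ribosome counts was not tested.

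Pnpla3 stood for the lipogenic side, and it too gave 0 calls among 22179 genes, or 0%, with a lowest adjusted p of 1 (limma). At an unadjusted p under 0.05 there were 913 genes, or 4.12%. The 5 genes with the lowest p were Tafa3, Nog, Gpt, Sybu and Usp18. Gpt, alanine aminotransferase, ranged from 4.48 (replicate 5) through 5.02 to 6.25 (replicate 4) and had a slope of 0.819 ± 0.155 (SE, adjusted p = 1, limma). Among the lipogenic genes, Fasn had a slope of 0.676 ± 0.154 (SE, adjusted p = 1, limma). For Fasn and Pnpla3, r was 0.835 (exact permutation p = 0.0131, adjusted 1) and rho 0.905 (exact permutation p = 0.00456, adjusted 1), and r was 0.939 without replicates 3 and 4. Dgat2, Srebf1 and Thrsp had slopes of 0.446 ± 0.160, 0.224 ± 0.121 and 0.346 ± 0.237 (SE, adjusted p = 1 for each, limma). In the synthesis list 3 of the 18 genes other than Pnpla3 had r of at least 0.7, where 2.69% of all genes did. They were Fasn, the elongase Elovl6 and the ketone-using synthetase Aacs. The count was 2 without replicate 1, 2, 3, 4 or 6 and 5 without replicate 7. With arrays left out the share of all genes ran from 3.66% without replicate 7 to 4.49% without replicate 6. Slc2a4, the insulin-dependent glucose transporter GLUT4, named after its values were seen, ranged from 6.01 (replicate 6) to 6.78 (replicate 4) with a slope of 0.331 ± 0.091 (SE, adjusted p = 1, limma).

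Interferon-response genes had mostly negative correlations with Pnpla3. Of 19 measured, 6 had r with Pnpla3 of at most -0.7, where 2.01% of all genes did, and 0 had r of at least 0.7. The median r of the list was -0.47, between -0.593 and -0.325 when each array was left out. Usp18, which limits interferon signalling, ranged from 5.22 (replicate 4) through 5.80 to 6.26 (replicate 6), with a slope of -0.456 ± 0.094 (SE, adjusted p = 1, limma). Zbp1, a sensor of viral nucleic acid, ranged from 4.23 (replicate 2) to 5.75 (replicate 6), and the interferon regulator Irf7 from 5.88 (replicate 4) to 6.71 (replicate 1). None of these genes had an SD of at least 0.5, and the mean of the list moved only between 5.29 and 5.69. The 3 reference genes were also set against each other. The slope of Pnpla3 on Lep was 0.384 ± 0.225 (SE, adjusted p = 0.778, limma), and that of Cyp4a14 on Lep 0.736 ± 0.606 (SE), neither of which passed (limma).

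A number of other regulators were uneven. Dusp9, a phosphatase of MAP kinases, ranged from 4.71 (replicate 5) and 4.76 (replicate 1) to 7.85 (replicate 6), an 8.86-fold range. Nr4a3, an orphan receptor gene that answers to adrenergic signals, lay at 6.18 in replicate 4 and between 7.68 and 8.11 in replicates 5 to 8. Rasd1, a small G protein gene induced by glucocorticoids, ranged from 7.42 (replicate 5) through 8.14 to 9.08 (replicate 6). Per1 and Fkbp5, which glucocorticoids also induce, were more even, with SDs of 0.38 and 0.26, and both were lowest in replicate 6, at 7.08 and 6.75. Ppargc1a, a coactivator of oxidative metabolism, ranged from 5.00 (replicate 4) to 6.61 (replicate 8). Of 28 immediate early genes 5 had an SD of at least 0.5, against 3.18% of all genes, and 3 did without replicate 5. The heat shock genes Hspa1a and Hspa1b, near-identical copies that probes may not separate, both peaked in replicate 5, at 8.66 and 8.27 against medians of 6.55 and 6.84.

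In the amino acid stress list 2 of 22 genes were uneven, against 3.18% of all genes, and 1 without replicate 1, 2 or 8. Mthfd2, a mitochondrial folate enzyme, lay at 6.02, 5.61 and 5.74 in replicates 6, 7 and 8 and between 4.38 and 4.86 in the other 5 arrays. Slc7a1, a transporter of cationic amino acids, lay between 5.10 and 6.55, with replicate 8 highest. The mean of the 22 genes was also highest in replicates 6, 7 and 8, at 6.86, 6.78 and 6.86. Vnn1 was high in replicate 5 as well, lying between 9.31 and 9.72 in replicates 5 to 8 and between 8.46 and 8.75 in replicates 1 to 4. The circadian clock list had 0 uneven genes of 17. Among inflammation genes 4 of 24 were uneven, and the monocyte attractants Ccl2 and Ccl7 both peaked in replicate 7, at 6.51 and 6.69, while Cxcl13, which attracts B cells, peaked in replicate 2 at 8.83.

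Among markers of other cell kinds, those of cilia and mesothelium varied together as those of liver did. Neutrophil, plasma cell and endothelial markers had median pairwise correlations of -0.139, -0.066 and 0.167. Mast cell, progenitor and fibroblast, pericyte and smooth muscle, and macrophage markers lay between, at 0.553, 0.471, 0.359 and 0.339. Without replicate 1 these 4 values were 0.145, 0.009, 0.379 and 0.081. Genes of motile cilia were uneven in 16 of 21 measured markers, where 3.18% of all genes were, with a median SD of 0.790. Of their pairs 97.6% had a correlation of at least 0.7, where 3.10% of all pairs of genes did. Their mean was 4.93 in replicate 7 and 3.51 in replicate 4, and between 2.72 and 2.92 in the other 6 arrays. Cfap44, an axonemal protein, stood at 6.57 in replicate 7 and 4.40 in replicate 4, and at or below 2.82 elsewhere. The epithelial gene Plet1 reached 8.04 in replicate 7, where its median over all arrays was 4.19. Without replicate 7, only 3 of the 21 cilia genes had an SD of at least 0.5, and their median pairwise correlation was 0.626 in place of 0.932. Adam7, an epididymal gene, was at 4.69 in replicate 7 and at a median of 2.54, but the epididymal list had only 1 uneven gene of 15. Replicate 7 also had the highest score on the leading principal component, 25.7% of the variance of the fasted arrays. Loadings were ranked among the brighter genes only, provisional symbols aside, which left out 20 of the 21 cilia genes. Of the genes ranked, Plet1, Pipox, Cyp4a14, Mat1a and Ccdc153 had the highest loadings. Genes that followed Cyp4a14 as well as epithelial genes were thus at the high end of the component. The score of replicate 7 was 40.7, that of replicate 4 was 17.3, and those of the other 6 lay between -15.5 and 0.9. Without replicate 7, 550 genes had an SD of at least 0.5, 451 of them among the 706.

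Mesothelium, the cell layer that covers the fat pad, varied in another order. Of 9 measured markers 7 had an SD of at least 0.5, where 3.18% of all genes did, and 3 had one without replicate 6. All 9 were among the brighter genes. Their mean was highest in replicates 1, 5 and 2, at 7.80, 7.65 and 7.52, and lowest in replicate 6 at 6.45, and the median correlation between pairs was 0.777. Msln, the mesothelial surface protein mesothelin, ranged from 6.62 through 7.52 to 8.64, and Upk3b, a uroplakin, from 8.56 through 9.34 to 10.11. Replicate 1 was also highest for mast cells, whose list mean was 5.82 there and between 4.62 and 5.16 elsewhere. Cpa3, their carboxypeptidase, lay at 8.69 in replicate 1 and between 6.78 and 7.46 in the other 7. Progenitor and fibroblast markers, with 0 uneven genes of 8, had their highest mean in replicate 1 as well, at 9.15.

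Smaller sets of markers split the arrays again. Mmrn1, of lymphatic endothelium, lay at 7.77 in replicate 3 and 7.27 in replicate 7, and at 4.93 in replicate 8. Prox1, the transcription factor that defines that endothelium, was highest in the same 2 arrays, at 4.24 and 4.37, while Pdpn and Flt4 had SDs of 0.32 and 0.41. Blood vessel endothelium was even, with 0 uneven genes of 9, where 3.18% of all genes were uneven, and a mean between 8.61 and 8.89. Cnn1, a protein of smooth muscle, was highest in replicate 3 at 6.16, as was Actg2 at 4.80. Antibody light chain segments gave some of the largest spreads of all. Igkv15-103 ranged from 3.55 in replicate 4 to 8.56 in replicate 1, with replicate 3 at 8.39. These segments are close copies of each other, so their probe sets may share signal. Jchain, which joins secreted antibodies, was likewise highest in replicate 1 at 6.34, but it was the only uneven gene of 6 plasma cell markers.

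**Figure D4:**
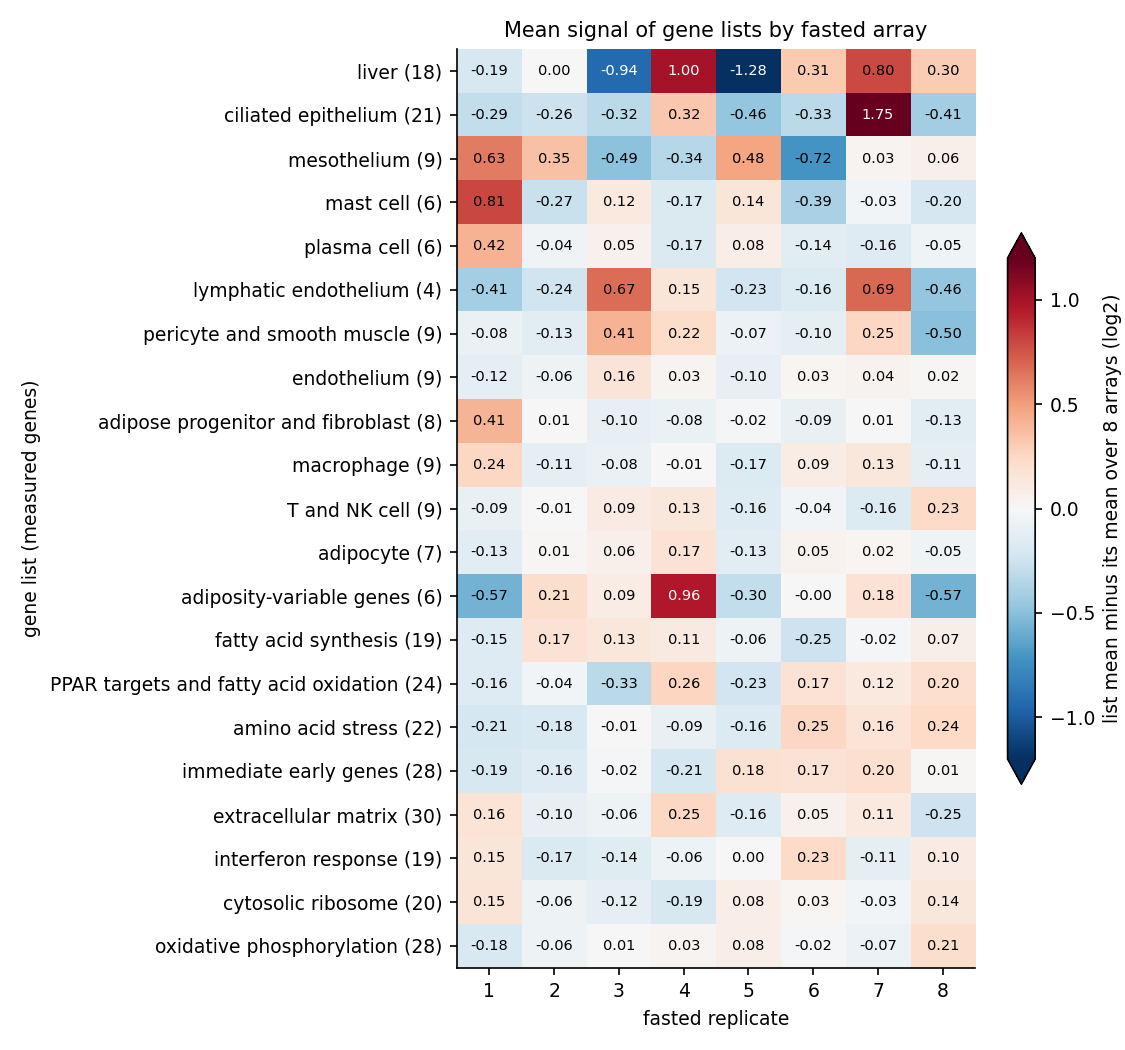
Each cell gives the mean log2 signal of a gene list in 1 fasted array minus the mean of that list over the 8 arrays, with the number of measured genes in brackets; colours stop at 1.2 in either direction. Liver genes are highest in replicates 4 and 7 and lowest in 3 and 5, and cilia genes are highest in replicate 7. Mesothelial and mast cell genes are highest in replicate 1. The ribosome, endothelium and adipocyte lists change little. The lymphatic endothelium list runs from 5.30 to 6.45 and the pericyte and smooth muscle list from 6.58 to 7.49.

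Whether spread itself differed between the fasted and the fed state was tested over all 16 arrays on absolute deviations from the group mean (limma). Of 22180 genes 2, or 0.00902%, passed an adjusted p of 0.05, 0 wider in fasted samples and 2 narrower. These were Hsd3b5, a steroid dehydrogenase of male liver, with an SD of 0.14 in fasted and 0.88 in fed samples (adjusted p = 0.0312, limma), and Zgrf1, a helicase gene, with 0.08 and 0.45 (adjusted p = 0.0453, limma). Both were dim. The test gave 0 calls without any one of fasted replicates 1, 3, 4, 5, 6 and 8 or fed replicates 2, 3 and 4, 1 without fasted replicate 7, 7 without fasted replicate 2, 4 without fed replicate 1 or 5, and 15 without fed replicate 7. At an unadjusted p under 0.05 there were 1821 genes, or 8.21%, of which 1180 were wider and 641 narrower in fasted samples. The median SD was 0.203 in fasted and 0.185 in fed samples, while 706 and 769 genes had an SD of at least 0.5.

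Cyp4a14, Lep, Pnpla3, Fasn and Nr4a3 had larger SDs in fasted than in fed samples but did not pass that test. Over genes the SD varied with signal, and the part of signal level in these differences was not tested. Cyp4a14 had 1.86 and 0.23 (adjusted p = 0.361, limma). Lep had 0.89 and 0.39 (adjusted p = 0.529, limma), Pnpla3 0.72 and 0.29 (adjusted p = 0.501, limma), Fasn 0.58 and 0.27 (adjusted p = 0.472, limma) and Nr4a3 0.68 and 0.25 (adjusted p = 0.335, limma). The nearest to the threshold on the wider side was Vnn1, with 0.50 and 0.15 (adjusted p = 0.0858, limma). Liver genes were uneven in fed samples too, where Alb had an SD of 1.32 and Mat1a of 1.59, against 0.99 and 1.72 in fasted ones (adjusted p = 0.639 and 0.985, limma). Sfrp5 was more uneven in fed samples, at 1.45 against 0.89 (adjusted p = 0.714, limma), and Pdk4 had 0.14 in fasted and 0.22 in fed samples (adjusted p = 0.751, limma).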

How the data were processed

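Values were the authors' deposited log2 signals, made with RMA per the submitters' processing notes, which give no version or filter. RMA sets arrays to a shared distribution, so values are relative to the other transcripts. Of 41345 probe sets, 23521 had 1 symbol, 1814 several and 16010 none in the platform annotation. Those with 1 symbol were used, with the highest mean over the fasted arrays kept per gene (1082 genes had more than 1). No pair of arrays was identical, and no batch is named. SDs, correlations and principal components were computed in Python 3.11.15; slopes and the spread test used limma 3.58.1 (lmFit, eBayes) in R 4.3.3, with Benjamini-Hochberg adjustment over all genes. Scripts were tested on simulated data. The spread test compared absolute deviations from the group mean, scaled for n. Lists held 484 pathway and 225 cell type entries, of which 441 and 199 were measured. Members, lists, Lep, Pnpla3 and Cyp4a14 were chosen with earlier results of these data known. Named genes were those highest in signal, widest, most even, lowest in p or widest in a list, and a fixed panel; Alb, Vnn1, Ehhadh, Upk3b, Col15a1, Eln, Rps6, Irf7, Slc2a4 and other list members past a cut were named after their values were seen. The number of arrays limits the precision. Promoters came from RefSeq (GRCm38.p6). Alternatives covered arrays left out, normalization, dim genes, probe sets, moderation, thresholds, covariates and array weights.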

Additional observations from a re-analysis of the deposited data

Results flagged for a closer look

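Among 94 named genes and 46 lists, 13 had 1 fasted array whose distance from the nearest other array, as a share of the range of the 8, exceeded Dixon's critical value. Chance gives about 1 in 20, and 7.86% of all 22180 genes passed. In replicate 1 the gene Mest lay low at 8.27, Cpa3 high at 8.69 and Svs5, a seminal vesicle gene, high at 5.05 where the next array lay at 2.93. The list means of progenitor and fibroblast markers (9.15), plasma cell markers (5.50), mast cell markers (5.82) and accessory sex gland markers (2.71) also lay high there. Replicate 7 stood alone for Cfap44 at 6.57, Tmem212, a gene of ciliated cells, at 6.83, and the matrix glycoprotein gene Tnc at 6.58, and for the ciliated epithelium list at 4.93. Actg2 lay high in replicate 3 at 4.80 and Hspa1a in replicate 5 at 8.66. The part of other tissue in these values was not tested.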

How the results depend on the processing

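The count of genes with an SD of at least 0.5 ran from 550 to 783 with arrays left out, was lowest without replicate 7, was 543 with a scaled median absolute deviation (346 shared with the 706) and 306 among the brighter genes. The share of the first component ran from 22.4% to 29.5% with arrays left out, and the lowest rank correlation from 0.963 to 0.968. Against Cyp4a14, 31 to 58 genes were called with arrays left out, 30 at an adjusted p under 0.01, 79 with array weights, 40 with Lep as a second covariate (chosen after seeing the data) and 0 by the exact permutation test. Against Lep, 2 genes were called with trend and robust settings and 0 under the other settings, and against Pnpla3 0 under all settings run. The spread test gave 0 to 15 calls with arrays left out. It gave 0 with array medians subtracted, brighter genes only, trend and robust settings, squared deviations, deviations from the median, an adjusted p under 0.01, and without fed replicates 2 and 3 and fasted replicate 7 (chosen after seeing the data). With the replicate number as a block it also gave 0. Deviations of same-numbered fed and fasted arrays correlated between -0.216 and 0.218. The labels do not say whether the numbers pair the samples. These correlations were not set against those of differently numbered arrays, so they cannot decide it. Of 475 SD values of named genes under alternatives 41 moved by over 1.5 times, and of 177 slopes 1 lost and 2 gained a call; for calls lost or gained in these counts the cause was not tested. Of the 21 cilia genes 1 was above the median signal, which limits what their spread shows.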

Other observations

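Other genes of the lists varied in ways not described above. Elovl3, an elongase of brown fat, ranged from 3.11 to 5.14 and was uneven at 4.31 ± 0.66. Acta1, skeletal muscle actin, was bright at 9.17 ± 0.67, while only 3 of the 10 muscle markers were among the brighter genes. Of the 10 markers 1 was uneven, where 3.18% of all genes were. Peg10, an imprinted gene, ranged from 5.39 (replicate 8) to 7.08 (replicate 4). Igfbp1, which binds insulin-like growth factors and is mainly a liver gene, ranged from 2.82 (replicate 5) to 5.91 (replicate 7). Retnlg, a neutrophil gene, lay at 5.83 in replicate 1 and 5.15 in replicate 6, against a median of 3.73. Of 7 neutrophil markers, none of them above the median signal, 2 were uneven, against 3.18% of all genes, and 1 without replicate 7. Mmp12, a macrophage elastase, lay at 4.95 in replicate 5 and between 5.96 and 7.15 elsewhere. Lcn2, an iron-binding protein of inflamed epithelium and fat, reached 8.75 in replicate 7 against a median of 6.90.

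Where a gene had more than 1 probe set, the sets could be compared. Over 1341 pairs the median correlation across the fasted arrays was 0.234, and over the 39 pairs whose kept set had an SD of at least 0.5 (26 genes, 1 of them with sets of identical values) it was 0.602.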
